A study of Mus musculus with 2 samples.

Results

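Fst and Tnc alveolar fibroblasts are fibroblasts of the mouse lung alveolus whose single-cell counts held transcripts of 4 genes for secreted proteins, namely Fst (follistatin), Tnc (tenascin C), Tfpi2 (tissue factor pathway inhibitor 2) and Wisp1 (CCN4). They were chosen from raw counts of UMIs, the tags that each stand for 1 captured mRNA molecule. A cell had to show at least 500 genes and at most 10% mitochondrial UMIs. It had to hold at least 4 UMIs of Col1a1, Col1a2, Col3a1, Bgn and Dcn together, and more of these than of the endothelial genes Pecam1, Cdh5, Cldn5 and Egfl7. Its sum over the alveolar fibroblast genes Npnt, Tcf21, Limch1, Ces1d, Fgfr4 and Slc7a10 had to be at least 2 and larger than its sums over markers of adventitial fibroblasts, of myofibroblasts and of pericytes. The chemokines Cxcl9, Cxcl10 and Ccl7 had to make under 0.5% of its UMIs, and Fst, Tnc, Tfpi2 and Wisp1 had to sum to at least 3 UMIs. In all, 110 cells met these conditions, among 1008 alveolar fibroblasts and 4581 cells that passed the filters.

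The cells came from lungs dissociated 7 days after labelling 4T1 cells had been put into the bloodstream. 4T1 cells derive from a mammary tumour of a mouse and seed metastases in the lung, and their labelling version is known to release a cell-penetrating mCherry protein that neighbouring cells take up. CD45-negative cells, which lack the surface protein of leukocytes, were sorted into a Cherry_Positive and a Cherry_Negative group, each sequenced as 1 Chromium 3′ library, and 104 of the chosen cells were in the Cherry_Positive library and 6 in the Cherry_Negative library. Every cell of both groups thus came from a lung exposed to 4T1 cells, and Cherry_Negative cells are not cells of a tumour-free lung. The labels give neither strain, age, sex, radiation treatment nor the number of animals behind each library. With 1 library a group there was no replicate and no test, and each difference below compares these cells or these libraries only.

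Alveolar fibroblasts lie next to type 2 alveolar epithelial cells and are known for their lipid and retinoid handling and for the growth factors they give to the epithelium. Follistatin binds activins and some BMPs and keeps them from their receptors. Tenascin C is a matrix glycoprotein of developing and injured tissue, Tfpi2 a serine protease inhibitor deposited in the matrix, and Wisp1 a matricellular protein known as a target of Wnt signalling. Activated fibroblasts are known to take up contractile proteins such as smooth muscle actin and to deposit collagen.

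Promoter sequence is given for 3 genes on which the results turn: Tnc, which most of the chosen cells held; Acta2 (smooth muscle actin), among the genes higher in them; and Inmt, an abundant methyltransferase of alveolar fibroblasts, among the genes lower in them. The windows were taken from RefSeq, build GRCm38.p6, and run 5′ to 3′ in gene orientation from 250 bases before the start of the gene to 50 after it. Tnc lies on the minus strand at chr4:64046966-64047265, Acta2 on the minus strand at chr19:34255324-34255623 and Inmt on the minus strand at chr6:55174941-55175240. Of the 6 marker genes, 3 matched a window in the RefSeq table. Capitals mark matches on either strand to the letters TGANTCA (AP-1), TATAAA (bound by TBP), GGGCGG (bound by Sp1) and GGAATG (bound by TEAD factors), none of which overlap here.
Tnc: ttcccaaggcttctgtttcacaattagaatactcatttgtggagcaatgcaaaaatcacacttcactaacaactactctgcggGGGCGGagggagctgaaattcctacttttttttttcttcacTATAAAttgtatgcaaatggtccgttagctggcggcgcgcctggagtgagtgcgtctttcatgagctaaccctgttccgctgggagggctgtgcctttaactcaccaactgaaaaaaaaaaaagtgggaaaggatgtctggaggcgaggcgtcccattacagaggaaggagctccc
Acta2: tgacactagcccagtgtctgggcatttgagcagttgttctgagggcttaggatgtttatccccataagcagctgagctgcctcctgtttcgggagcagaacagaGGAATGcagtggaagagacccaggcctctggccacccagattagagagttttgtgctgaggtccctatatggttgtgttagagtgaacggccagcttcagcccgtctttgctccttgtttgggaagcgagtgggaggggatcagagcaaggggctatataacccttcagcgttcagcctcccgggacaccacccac
Inmt: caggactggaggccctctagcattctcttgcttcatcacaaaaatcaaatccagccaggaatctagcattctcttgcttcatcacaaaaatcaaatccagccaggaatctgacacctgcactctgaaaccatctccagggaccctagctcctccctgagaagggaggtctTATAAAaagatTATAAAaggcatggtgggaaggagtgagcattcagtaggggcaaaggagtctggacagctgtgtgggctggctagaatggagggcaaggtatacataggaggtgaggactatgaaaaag
The Tnc window held a TATAAA that begins 126 bases and a GGGCGG that begins 167 bases before the start. The Acta2 window held a GGAATG 146 bases before the start, and the Inmt window held TATAAA 80 and 69 bases before it. Among 27025 windows of the same length, 7.93% held TGANTCA, 14.2% TATAAA, 35.9% GGGCGG and 14.6% GGAATG. A match describes letters and is not a bound site.

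The Cherry_Positive library had 1826 barcodes and 10094853 UMIs, and the Cherry_Negative library 2861 barcodes and 11632459 UMIs. Filters left 1770 and 2811 cells. The chosen cells were deep, with a median of 5994 UMIs (2213 to 21669) in Cherry_Positive and 4317.5 (2414 to 5184) in Cherry_Negative, where other alveolar fibroblasts had medians of 3802 and 3092. Levels are UMIs summed over a group of cells per 1000000 UMIs of that group (CPM), and intervals are 95% intervals for counting error only. Both libraries held 13 barcodes in common, and none of them was a chosen cell.

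The 4 genes did not mark all chosen cells alike. Tnc was held by 91 of the 104 Cherry_Positive cells, with 0 to 31 UMIs a cell and a median of 2.5. Wisp1 was held by 77 cells (0 to 17 UMIs, median 1) and Tfpi2 by 59 (0 to 19, median 1). Fst, which names the cells, was held by only 20 of the 104 cells, with 0 to 57 UMIs and a median of 0, and 1 cell held 32.4% of its 176 UMIs. Without counting Fst, 101 of the 104 cells still reached 3 UMIs, so the label describes Tnc and Wisp1 better than Fst. The number of the 4 genes held was 1 in 17 cells, 2 in 39, 3 in 40 and all 4 in 8, and 32 cells held Tnc, Tfpi2 and Wisp1 but no Fst. The 6 Cherry_Negative cells held no Fst at all, while 5 held Tnc, 5 Wisp1 and 2 Tfpi2.

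**Figure D1:**
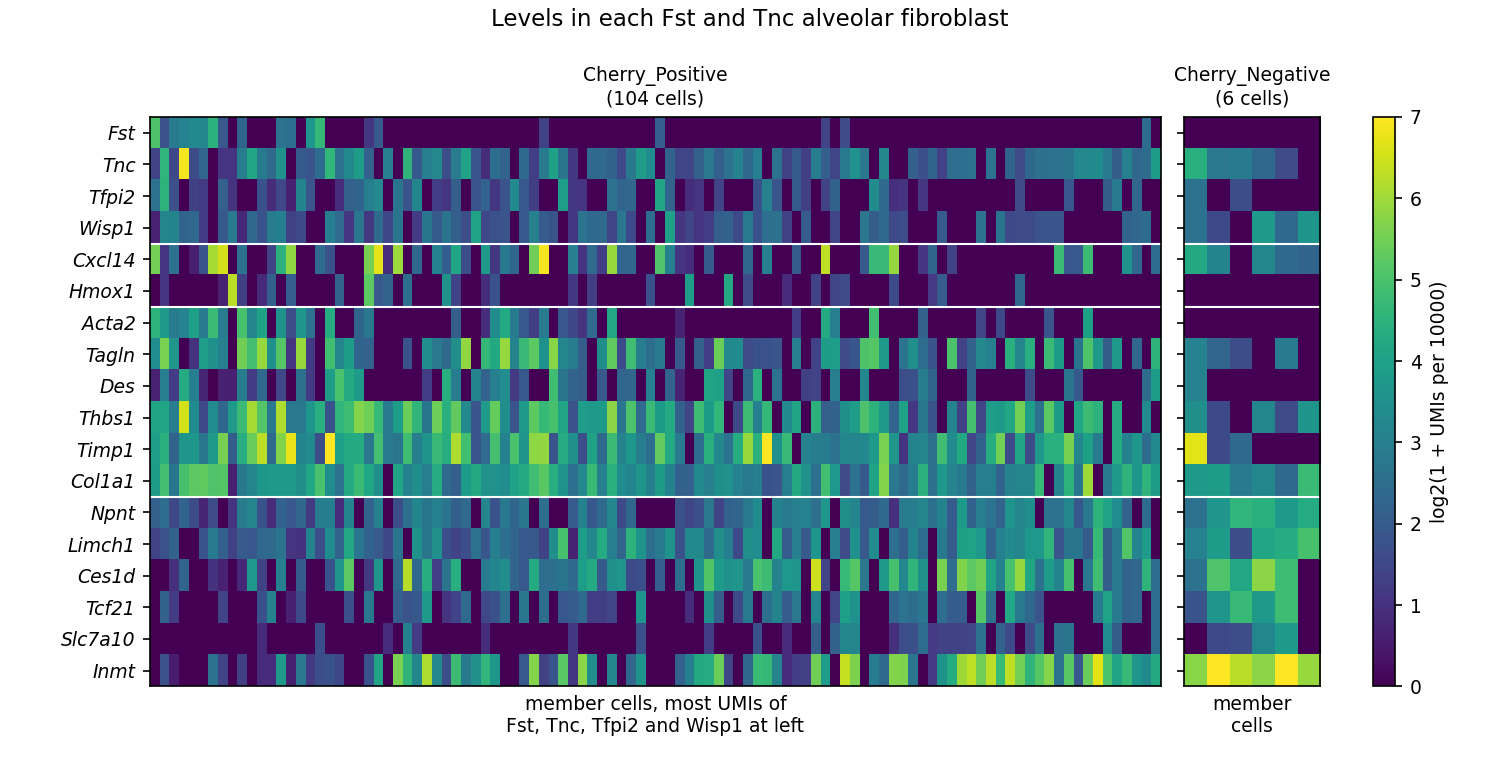
Each column is 1 chosen cell, ordered within its library by its UMIs of Fst, Tnc, Tfpi2 and Wisp1, and each row a gene; colour is log2(1 + UMIs per 10000 UMIs of the cell). Fst is held by 20 of the 104 Cherry_Positive cells and by 0 of the 6 Cherry_Negative cells, Tnc by 91 and 5, and Inmt and the alveolar fibroblast genes are stronger toward the right, in cells with fewer UMIs of the 4 genes.

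The other 2 markers of the label, which the choice of cells did not use, were each uneven. Cxcl14, a chemokine of stroma and epithelium, was at 1334 CPM in the chosen Cherry_Positive cells and 571 CPM in the other alveolar fibroblasts, with 0 to 165 UMIs a cell (median 1) against 0 to 80 (median 0). After every cell was thinned to 2000 UMIs, Cxcl14 was found in 39 of 104 chosen cells (37.5%) and in 144 of 372 others (38.7%), so the higher level sat in few cells and not in a larger share of them. Hmox1, the haem-degrading oxygenase, was at 345 CPM against 46.1 CPM, but 1 chosen cell held 56.2% of its 260 UMIs and the median cell held 0. Cxcl14 was held by 58 of the 104 chosen cells without thinning, and Hmox1 by 30.

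Markers of alveolar fibroblasts were present in the chosen Cherry_Positive cells at a reduced level. All 10 markers were detected in the 104 Cherry_Positive cells and summed to 4289 CPM, against 10234 CPM in the 380 other alveolar fibroblasts of that library. The 6 Cherry_Negative cells were at 19346 CPM with 9 of 10 detected and Fgfr4 at 0. Since 6 of the 10 markers served to choose all alveolar fibroblasts, these sums describe the cells and test nothing. Markers of myofibroblasts were near 0, with a sum of 83.6 CPM against 92.1 CPM and Lgr6 at 0 in both. Pericyte markers summed to 174 CPM in the chosen cells (0 to 33 UMIs a cell, median 0), against 68.2 CPM. The choice of cells held most of these myofibroblast and pericyte markers below the alveolar fibroblast genes in both groups. Their low sums thus test nothing either. Of 7 smooth muscle markers, Myh11, Cnn1 and Lmod1 were at 0, yet the sum was 2019 CPM against 523 CPM, carried by Tagln, Acta2 and Des.

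**Figure D2:**
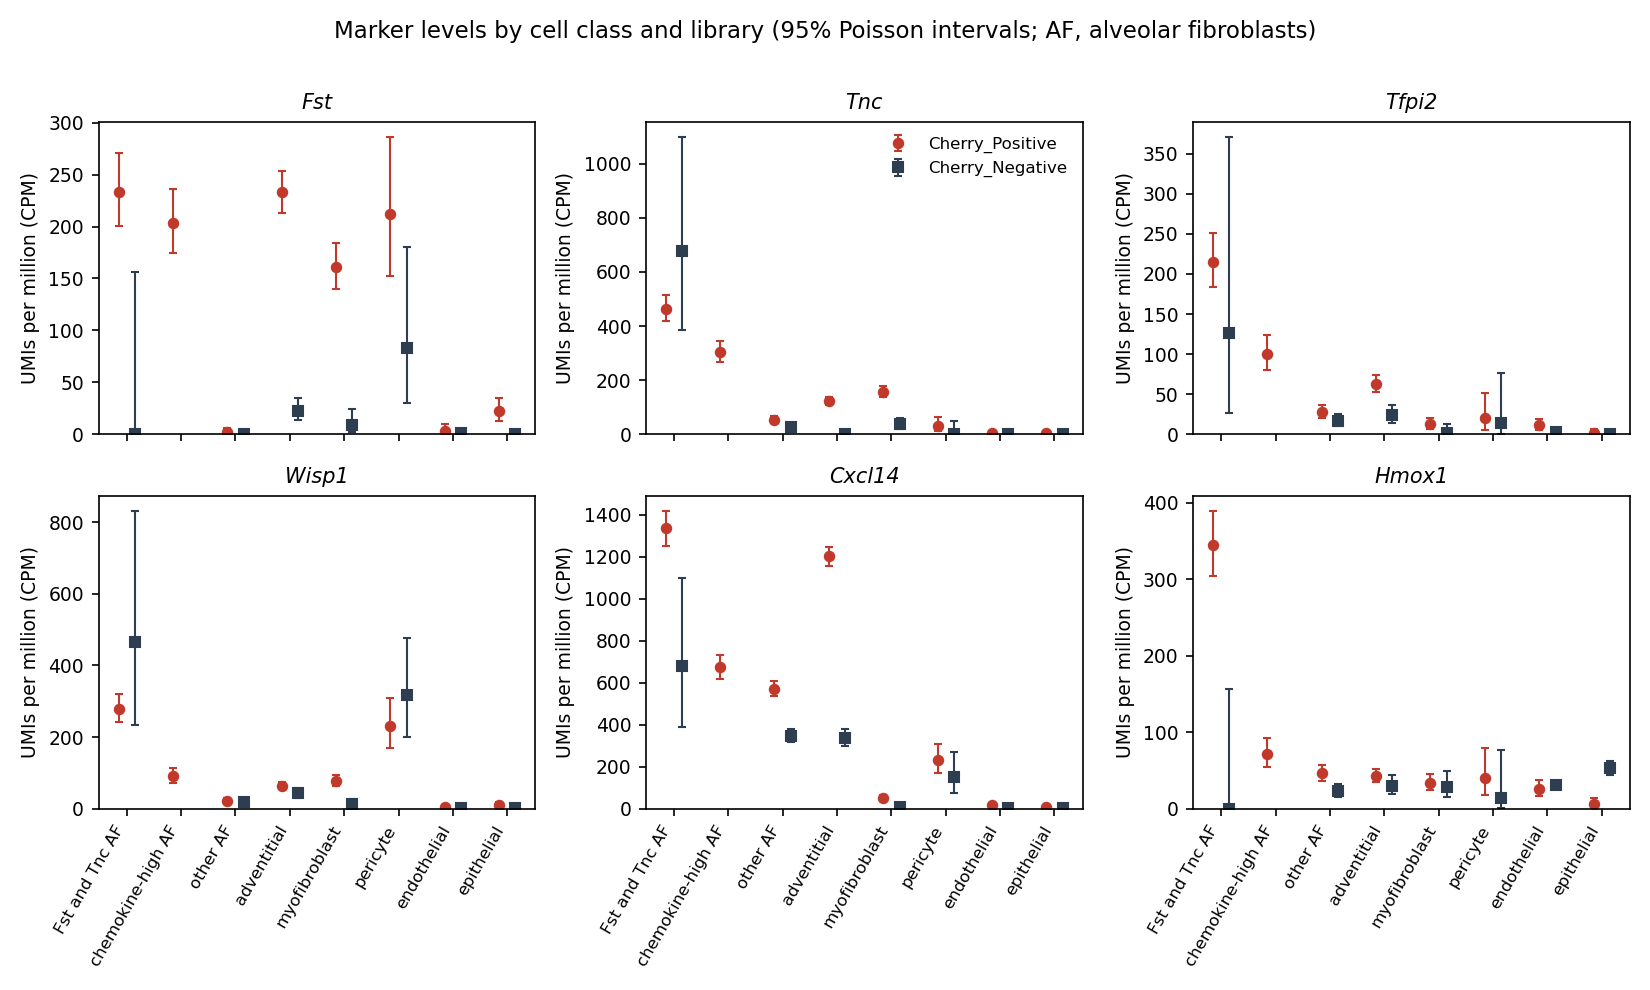
Level of the 6 marker genes in CPM (points) with 95% Poisson intervals (bars) by cell class, Cherry_Positive in red and Cherry_Negative in dark blue; the chosen cells stand at the left of each panel. Tnc, Tfpi2 and Hmox1 are highest in the chosen cells among the Cherry_Positive classes drawn, while Fst is about as high in adventitial fibroblasts (233 CPM) as in the chosen cells (234 CPM); other mesenchymal cells, at 449.6 CPM of Fst, are not drawn.

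Transcripts of the 4 genes were not confined to these cells. In the Cherry_Positive library, Fst stood at 234 CPM in the chosen cells, 203 CPM in chemokine-high alveolar fibroblasts, 233 CPM in adventitial fibroblasts, 212 CPM in pericytes, 161 CPM in myofibroblasts and 2.33 CPM in other alveolar fibroblasts. It was highest in the 69 other mesenchymal cells, those that no class sum placed, at 449.6 CPM (389 to 516). Endothelial cells, which serve here as a background of free RNA, had 3.79 CPM. Tnc was at 465 CPM in the chosen cells, ahead of chemokine-high alveolar fibroblasts at 304 CPM, other mesenchymal cells at 281 CPM, myofibroblasts at 157 CPM and adventitial fibroblasts at 124 CPM. Wisp1 was at 279 CPM (242 to 319), and the interval of pericytes, at 232 CPM, overlapped it. At 3 UMIs or more, the 4 genes were found in 55 of 136 chemokine-high alveolar fibroblasts, 76 of 343 adventitial fibroblasts, 61 of 255 myofibroblasts, 12 of 52 pericytes and 27 of 69 other mesenchymal cells, but in 1 of 253 endothelial cells. All values in this paragraph come from the genes that chose the cells.

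The chosen cells made a larger share of the alveolar fibroblasts in the Cherry_Positive library. They were 104 of 620 alveolar fibroblasts there (16.8%, exact binomial interval 13.9 to 19.95%) and 6 of 388 in the Cherry_Negative library (1.55%, 0.570 to 3.34%). Thinned to 2000 UMIs a cell and without the chemokine-high cells, 39 of 476 (8.19%, 5.89 to 11.03%) and 3 of 339 (0.885%, 0.183 to 2.56%) still reached 3 UMIs. In endothelial cells the thinned shares were 0 of 242, which at 3 counts allows a share of up to 1.24%, in Cherry_Positive and 1 of 1036 (0.0965%) in Cherry_Negative. The same direction was seen in the other mesenchymal classes, with 76 of 343 adventitial fibroblasts in Cherry_Positive against 10 of 179 in Cherry_Negative and 61 of 255 myofibroblasts against 2 of 147.

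The first question within the Cherry_Positive library was how the 104 cells differed from the 380 other alveolar fibroblasts, which share their gate, library and sequencing. Among 6041 genes with at least 30 UMIs over both groups and 20 CPM in either, 370 (6.12%) were at least 2-fold higher in the chosen cells and 225 (3.72%) at least 2-fold lower. The median of these genes was 0.16 higher on the log2 scale in the chosen cells, and a trimmed-mean scaling (TMM) would shift every ratio down by 0.14. With genes ordered by whichever end of their ratio interval was closer to 1, the 15 that led the higher side were Retnla, Chac1, Chil1, Sftpc, Scd1, Napsa, Sftpa1, Sftpd, Inhba, Rgs16, Sftpb, Acta2, Hmox1, Col15a1 and Spp1.

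Many of those 15 rested on single cells. One chosen cell held 1861 of the 1980 UMIs of Sftpc, the surfactant gene of type 2 alveolar epithelium, with 723 of 725 UMIs of Retnla, 352 of 361 of Sftpa1 and 129 of 131 of Chil1. Markers of type 2, type 1, airway, carcinoma-like and leukocyte cells made 14.8% of its 17195 UMIs, against 0.183% in the next chosen cell and a median of 0.0625%. It had 3 UMIs of Tnc, 2 of Wisp1 and none of Tcf21. Single cells also held 94.3% of the UMIs of Spp1 (osteopontin), 89.7% of Inhba (the activin A subunit) and 63.3% of Chac1, which was found in 3 chosen cells and in none of the others. On the lower side, 99.5% of Scgb3a1 and all of Reg3g sat in single cells of the other group, where 7 of 380 cells held over 1% of such markers and the highest 75.4%. The part of mixed droplets in these values was not tested.

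Genes were therefore ranked again without the 1 chosen cell and the 7 other cells above 1%. Genes of which a single cell held over 25% in the group where they were higher were also left out. No minimum number of cells was set, so genes found in few cells could still lead. This ranking was made after the first had been seen. It left 103 chosen cells and 373 others, and its first genes on the higher side were Rgs16, Acta2, Col15a1, Cotl1, Ctsc and Plk2. Not all were particular to the chosen cells. Ctsc was at 261 CPM in them, 251 CPM in chemokine-high alveolar fibroblasts and 249 CPM in myofibroblasts. Rgs16 was at 131 CPM in myofibroblasts, above the chosen cells. Col15a1, Cotl1 and Plk2 were lower in both of these classes than in the chosen cells. Plk2 was nonetheless found in a larger share of endothelial cells than of chosen cells after thinning, as given below. Acta2 had 0 to 40 UMIs a cell (median 0) in the chosen cells and 0 to 10 (median 0) in the others. It was found in 40 of 103 cells at 462 CPM, against 46 of 373 cells at 57.0 CPM, 8.11-fold higher (6.43 to 10.3). Most chosen cells thus held no Acta2, and the groups overlapped. After thinning to 2000 UMIs it was found in 28 of 104 chosen cells (26.9%, 18.7 to 36.5%) and 26 of 372 others (6.99%, 4.62 to 10.1%), beside 3.31% of endothelial cells. Chemokine-high alveolar fibroblasts, at 20.1% (13.7 to 27.9%), overlapped the chosen cells, and myofibroblasts were at 83.1%.

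**Figure D3:**
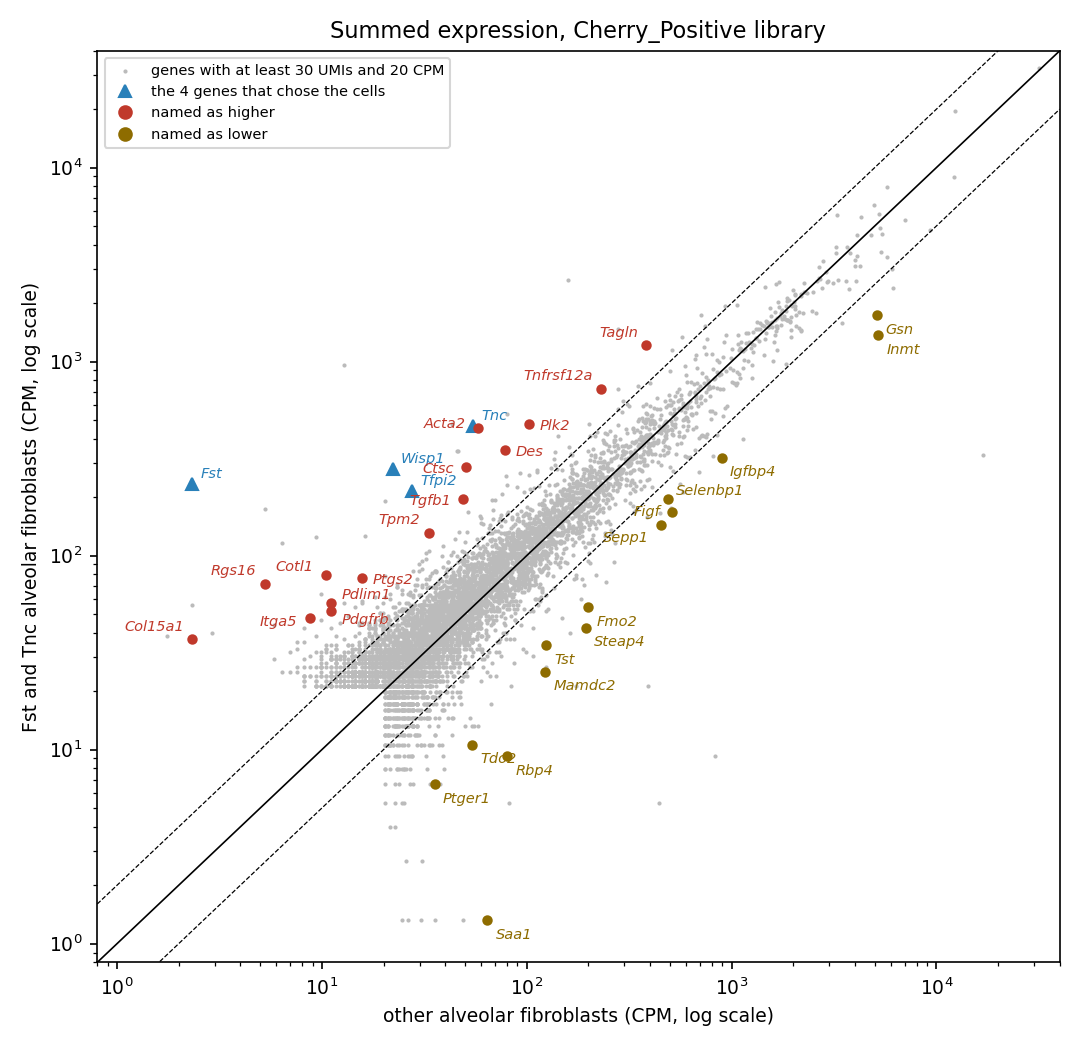
Level of each gene in the chosen cells (vertical, CPM, log scale) and in the other alveolar fibroblasts (horizontal, CPM, log scale) of the Cherry_Positive library; the solid line marks equal levels and the dashed lines 2-fold differences. The named genes are those that lead the second ranking, which left out genes held mainly by single cells. Tagln and Acta2 lie above the upper dashed line and Inmt and Gsn below the lower one. Sorl1, with no UMI in the chosen cells, is not drawn.

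Tagln (transgelin), which binds actin, was the most widely found of these genes, with 0 to 74 UMIs a cell and a median of 4 against 0 to 26 and a median of 1. It was at 1238 CPM against 390 CPM in these cells, 3.18-fold higher. Des (desmin), the intermediate filament of muscle, was 4.55-fold higher at 356 CPM against 78.2 CPM, and Tpm2 (tropomyosin 2) 3.89-fold higher at 134 CPM against 34.5 CPM. Rgs16, which shortens G protein signalling, was at 72.0 CPM against 5.45 CPM, but in only 14 of 103 cells. Tgfb1, the ligand of the TGF-beta pathway, was 4.34-fold higher, found in 55 of 103 cells against 56 of 373. Tnfrsf12a, the receptor of TWEAK, was 3.10-fold higher, and the p53 target kinase Plk2 4.56-fold. After thinning, Tnfrsf12a was found in 56.7% of chosen cells and 53.7% of chemokine-high alveolar fibroblasts, and Plk2 in 40.4% and 23.1%. Endothelial cells were at 26.4% for Tnfrsf12a but at 55.8% for Plk2. Tgfb1 was found in 40.1% of endothelial cells and 26.9% of chosen cells. The integrin subunit Itga5, the PDGF receptor Pdgfrb, the prostaglandin synthase Ptgs2 and Col15a1 were 5.76-fold, 5.14-fold, 5.91-fold and 15.7-fold higher at low levels of 38.0 to 78.8 CPM. Col15a1, found in 10 of 103 cells, was on the lower side without the 20 cells that hold Fst, with a ratio of 0.776 over the other alveolar fibroblasts. Cotl1, Ctsc and Pdlim1, of which the last 2 encode a lysosomal protease and an actin-linked scaffold, completed the 15.

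The first genes on the lower side were Saa1, Sorl1, Rbp4 and Inmt. Inmt had 0 to 53 UMIs a cell and a median of 3.5 in the chosen cells, against 0 to 124 and a median of 16. Summed, it was at 1397 CPM against 5381 CPM, 3.85-fold lower. Gsn (gelsolin), which severs actin filaments, was 3.00-fold lower at 1766 CPM against 5300.2 CPM. Figf (VEGF-D), a lymphatic growth factor, was 3.08-fold lower and found in 45 of 103 cells against 258 of 373. The retinol carrier Rbp4 was 8.60-fold lower at 9.51 CPM against 81.8 CPM. Igfbp4, which binds insulin-like growth factors, was 2.82-fold lower, and the selenium carrier Sepp1 3.28-fold. Sorl1 had 0 UMIs against 36 and was thus at least 5.35-fold lower at a floor of 3 counts. Saa1, Steap4, Mamdc2, Fmo2, Tdo2, Ptger1, Selenbp1 and Tst made up the remainder, and of these Selenbp1 was 3.02-fold lower. Saa1, an acute phase gene, had 1 UMI against 110, a ratio of 0.0204 (0.000511 to 0.116).

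Lists of genes grouped by function were then read against all 10031 genes with at least 10 UMIs, of which 752 (7.5%) were at least 2-fold higher in the chosen cells and 810 (8.07%) at least 2-fold lower, with a median log2 ratio of 0.12. Genes that chose the cells are left out of each list. The lists were composed with earlier results of these data known, so their counts describe the cells and are no independent evidence.

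The contractile list had the highest median of the 30 lists. All 15 measured genes were higher in the chosen cells, 7 of them at least 2-fold, and the median log2 ratio was 0.91. Beside Acta2, Tagln, Des and Tpm2, the 2-fold group held Cald1 (caldesmon) at 1143 CPM against 514 CPM, Actn1 at 277 CPM against 112 CPM and Flna at 313 CPM against 136 CPM. Myl9, the smooth muscle myosin light chain, was at 18.6 CPM against 16.9 CPM, and Myh11 and Cnn1 had no UMI in the chosen cells. Without the cells that hold Fst the median was 0.77.

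Of 15 measured collagen chains, 12 were higher, 6 at least 2-fold and 1 at least 2-fold lower, with a median of 0.65. The basement membrane chains Col4a1 and Col4a2 were at 412 and 292 CPM, against 204 and 138 CPM, and the fibril chain Col5a1 at 118 CPM against 50.1 CPM. Without the 20 cells that hold Fst the collagen median was 0.20, close to that of all genes. Col1a1, which helped choose mesenchymal cells, had 0 to 72 UMIs a cell (median 6), against 0 to 27 (median 2), and stood at 1299.6 CPM against 755 CPM. For collagen processing and crosslinking the median was 0.42, with 13 of 17 genes higher but only 1 at least 2-fold, the lysyl oxidase relative Loxl2, and 1 at least 2-fold lower, the procollagen enhancer Pcolce2 at 328 CPM against 811 CPM. Serpinh1, the collagen chaperone, was at 1953 CPM against 1062 CPM.

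Elastic fibre genes were split, with a median of -0.00. Eln (elastin) was at 1742 CPM against 709.98 CPM, the only 1 of 8 at least 2-fold higher, while the microfibril gene Mfap4 was at 4789.7 CPM against 9259 CPM and none was at least 2-fold lower. Among 19 matricellular genes 7 were at least 2-fold higher and 1 at least 2-fold lower, with a median of 0.22. Thrombospondin 1 (Thbs1) was found with 0 to 48 UMIs a cell (median 8.5), against 0 to 38 (median 1), at 1532 CPM against 741 CPM. Spon2 was at 413 CPM against 143 CPM and the proteoglycan Vcan at 61.1 CPM against 20.4 CPM. Postn (periostin) was at 27.9 CPM against 3.497 CPM, in 8 chosen cells and 6 others. Fn1 (fibronectin) was at 1856 CPM against 2035 CPM, and Fbln5 at 30.5 CPM against 107 CPM. For hyaluronan and proteoglycans 3 of 16 genes were at least 2-fold higher, among them the hyaluronan receptor Cd44 at 227 CPM against 89.8 CPM, and 2 at least 2-fold lower, with a median of 0.16.

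Genes for control of proteolysis included several higher members. Of 12 coagulation and fibrinolysis genes 3 were at least 2-fold higher and none at least 2-fold lower, with a median of 0.41. Plat (tissue plasminogen activator), which starts the breakdown of fibrin, was at 231 CPM against 80.4 CPM. The urokinase receptor Plaur was at 85.0 CPM against 30.9 CPM. Thbd (thrombomodulin) was at 59.7 CPM against 114 CPM. Among 17 proteases and inhibitors 5 were at least 2-fold higher and 4 at least 2-fold lower, with a median of -0.08. Timp1, an inhibitor of matrix metalloproteinases, had 0 to 201 UMIs a cell (median 7), against 0 to 91 (median 2), and was at 1936 CPM against 929 CPM. Chemokine-high alveolar fibroblasts were at 4370.4 CPM of Timp1 and 1464 CPM of Thbs1. Mmp3 was at 27.9 CPM against 86.3 CPM, and the 12 UMIs of Mmp13 all came from 1 cell.

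**Figure D4:**
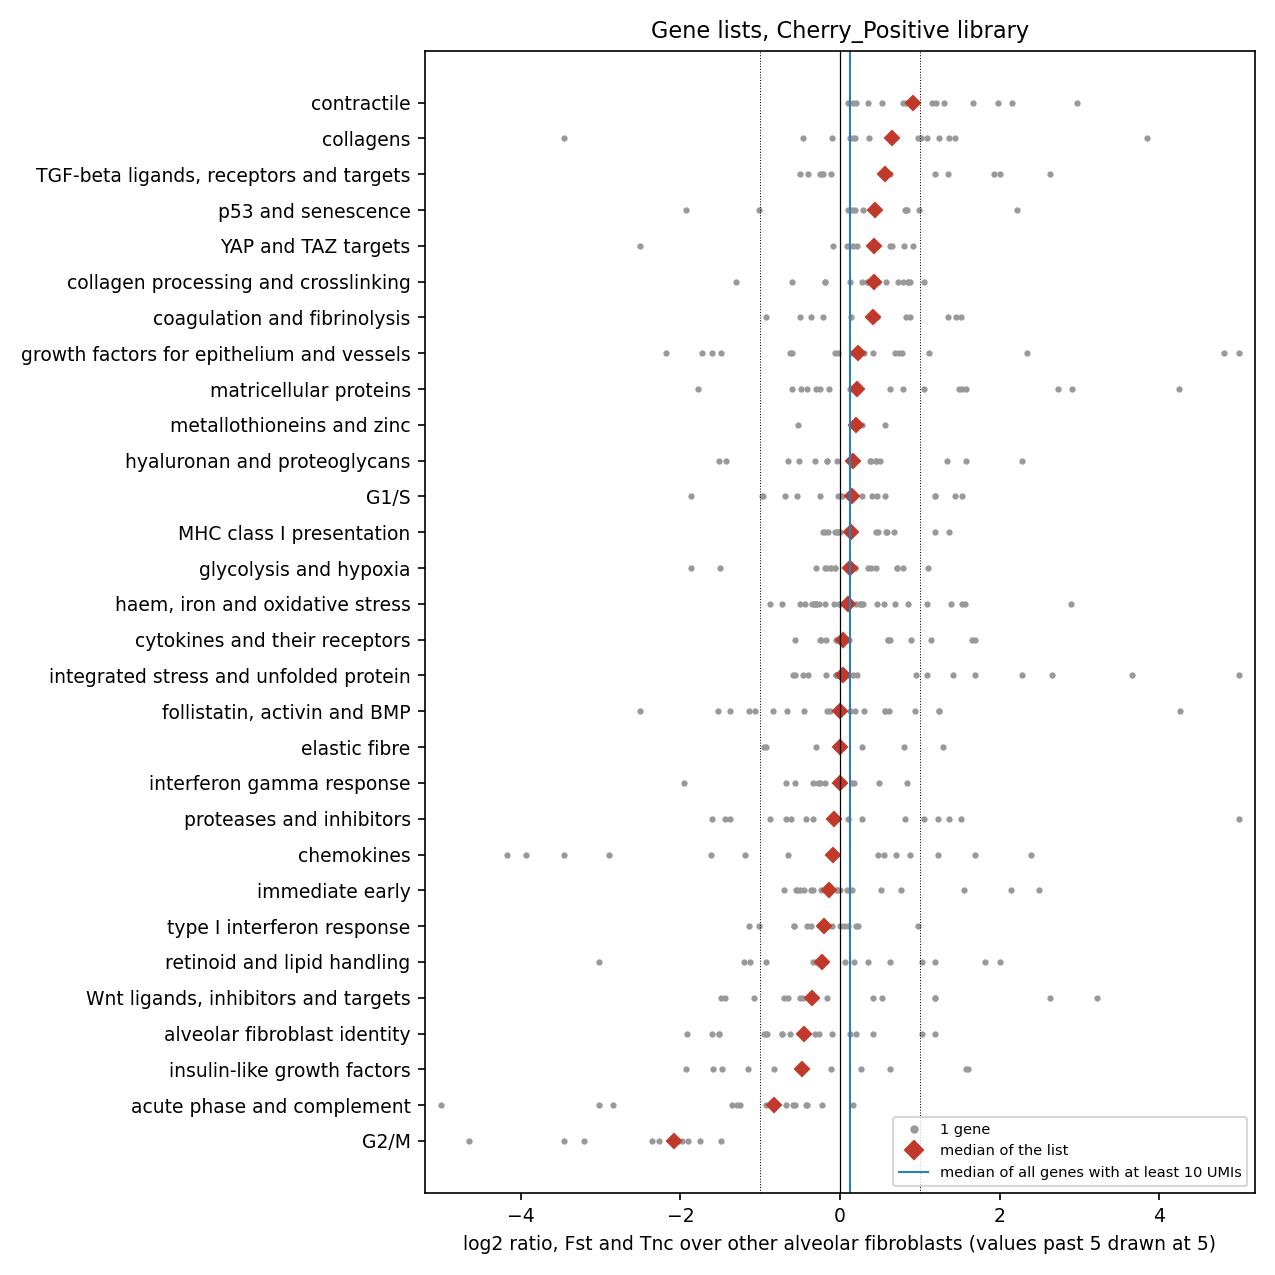
Log2 ratio of the chosen cells over the other alveolar fibroblasts of the Cherry_Positive library for each gene (grey) and for the median (red diamond) of 30 lists; the blue line is the median of all genes with at least 10 UMIs, 0.12. The contractile list lies highest, at 0.91, and the G2/M list lowest, at -2.09.

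Signalling lists differed from one another. In the follistatin, activin and BMP list, the one of Fst itself, 3 of 20 other genes were at least 2-fold higher and 5 at least 2-fold lower, with a median of -0.00. Fstl1, a follistatin-like secreted protein, was at 474 CPM against 201 CPM in 92 of 104 and 179 of 380 cells, and the activin receptor Acvr2a at 31.9 CPM against 13.4 CPM. Bmp4 was at 94.3 CPM against 198 CPM, and Id1, a target of BMP signalling, at 31.9 CPM against 71.1 CPM. For TGF-beta ligands, receptors and targets 5 of 15 genes were at least 2-fold higher and none at least 2-fold lower, with a median of 0.56. Ltbp2, a microfibril protein of the family that binds latent TGF-beta, was at 78.3 CPM against 20.4 CPM, while the receptors Tgfbr1 and Tgfbr2 were at 26.6 and 315 CPM, against 29.1 and 375 CPM. Of 16 Wnt genes 4 were at least 2-fold higher and 3 at least 2-fold lower (median -0.35), with Rspo3 at 29.2 CPM against 2.91 CPM and Axin2, a general target of the pathway, at 17.3 CPM against 24.5 CPM. For YAP and TAZ targets the median was 0.43, with 10 of 12 higher, 0 at least 2-fold higher and 1 at least 2-fold lower.

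Inflammatory lists had medians of 0.14 or lower in this comparison. The choice of cells held Cxcl9, Cxcl10 and Ccl7 under 0.5% of UMIs in both groups. These medians thus describe cells below that limit and test nothing. Under the alternative settings named at the end, the interferon gamma median ran from -1.30 to 0.42. The chemokine median ran from -0.88 to 0.55 and that of cytokines and their receptors from -0.11 to 0.60. Acute phase and complement genes had a median of -0.83, with 6 of 15 at least 2-fold lower and none at least 2-fold higher. Saa3 had 0 to 537 UMIs a cell (median 1), against 0 to 726 (median 1), and was at 2389.5 CPM against 6115 CPM. C4b, of the complement system, was at 158 CPM against 386 CPM. Of 14 chemokines 3 were at least 2-fold higher and 6 at least 2-fold lower (median -0.09). Ccl2, which attracts monocytes, was at 1464 CPM against 278 CPM, but 1 chosen cell held 30.2% of its UMIs and the median cell held 0.5. For cytokines and their receptors 3 of 16 were at least 2-fold higher, among them Lif at 104 CPM against 32.1 CPM, and none at least 2-fold lower, with a median of 0.04. For interferon gamma response the median was -0.00 with 0 of 16 at least 2-fold higher and 1 lower, for type I interferon response -0.20 with 0 and 2 of 17, and for MHC class I presentation 0.14 with 2 and 0 of 18.

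Stress lists showed single branches. In the integrated stress and unfolded protein list 7 of 25 genes were at least 2-fold higher and none at least 2-fold lower, with a median of 0.04. Ddit3 (CHOP) was found in 58 of 104 cells at 258 CPM, against 91 of 380 cells at 79.3 CPM, and Atf5 was at 220.4 CPM against 104 CPM. Ddit4, a brake on mTOR, was at 63.7 CPM against 9.91 CPM in 16 and 14 cells. After thinning to 2000 UMIs, Ddit4 was found in 5.77% of chosen cells (2.15 to 12.1%) and 2.96% of others (1.49 to 5.23%). Chac1 and Trib3 were then found in 2 and 3 of 104 chosen cells, against 0 and 1 of 372 others. A single cell held 19 of the 30 UMIs of Chac1. The chaperones Hspa5 and Hsp90b1, which mark the unfolded protein response, were at 1158 and 493 CPM, against 999.7 and 505 CPM. For haem, iron and oxidative stress 5 of 28 genes were at least 2-fold higher and 1 at least 2-fold lower, with a median of 0.10, and the autophagy receptor Sqstm1 was at 746 CPM against 351 CPM. Metallothioneins and zinc genes had a median of 0.20, with 0 of 4 past 2-fold. For p53 and senescence 1 of 14 was at least 2-fold higher and 2 at least 2-fold lower (median 0.43), and for immediate early genes 3 and 0 of 21 (median -0.14), with Fos at 3093 CPM against 4223 CPM.

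In the Cherry_Positive library, the identity of alveolar fibroblasts was weaker in the chosen cells than in the others. Among 22 genes of that identity that did not choose the cells, 2 were at least 2-fold higher and 4 at least 2-fold lower, with a median of -0.45 and a summed level of 15233 CPM against 27856 CPM. Mettl7a1 was at 175 CPM against 504 CPM and the glypican Gpc3 at 92.9 CPM against 266 CPM, while Pdgfra, the PDGF receptor of these fibroblasts, was at 332 CPM against 290.3 CPM and the lipid droplet coat gene Plin2 at 568 CPM against 277 CPM. Tcf21, a transcription factor of lung fibroblasts that helped choose both groups, had 0 to 20 UMIs a cell (median 1), against 0 to 29 (median 2), and stood at 268 CPM against 694 CPM. Of the 104 cells, 70 held no Slc7a10.

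These differences were graded and had no step at the threshold. With the 4 genes at 0, 1 and 2 UMIs (237, 103 and 40 other alveolar fibroblasts), Inmt was at 6107, 3949.6 and 3288 CPM, and at 3, 4 to 5, 6 to 9 and 10 or more UMIs (28, 22, 27 and 27 chosen cells) it was at 3458, 1382, 1385 and 339 CPM. Cells just outside the threshold, with 2 UMIs, and just inside it, with 3, thus had like levels of Inmt. Acta2 over the same 7 steps was at 37.6, 51.3, 199, 76.8, 186, 314 and 849 CPM, and Tgfb1 at 40.5, 57.2, 75.9, 76.8, 136, 179 and 294 CPM. Tcf21 was at 715, 680.3, 607, 524, 315, 269 and 119.8 CPM. Acta2 was lower at 3 than at 2 UMIs, and the other 3 genes ran in 1 direction or nearly so. Depth moved with the steps, from a median of 3679 UMIs at 0 to 9533 at 10 or more, since a deeper cell reaches 10 UMIs more easily, and its part in the order was not tested. With both groups limited to cells of at least 4000 UMIs (81 and 177 cells) the contractile median was 0.96 and the identity median -0.42.

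**Figure D5:**
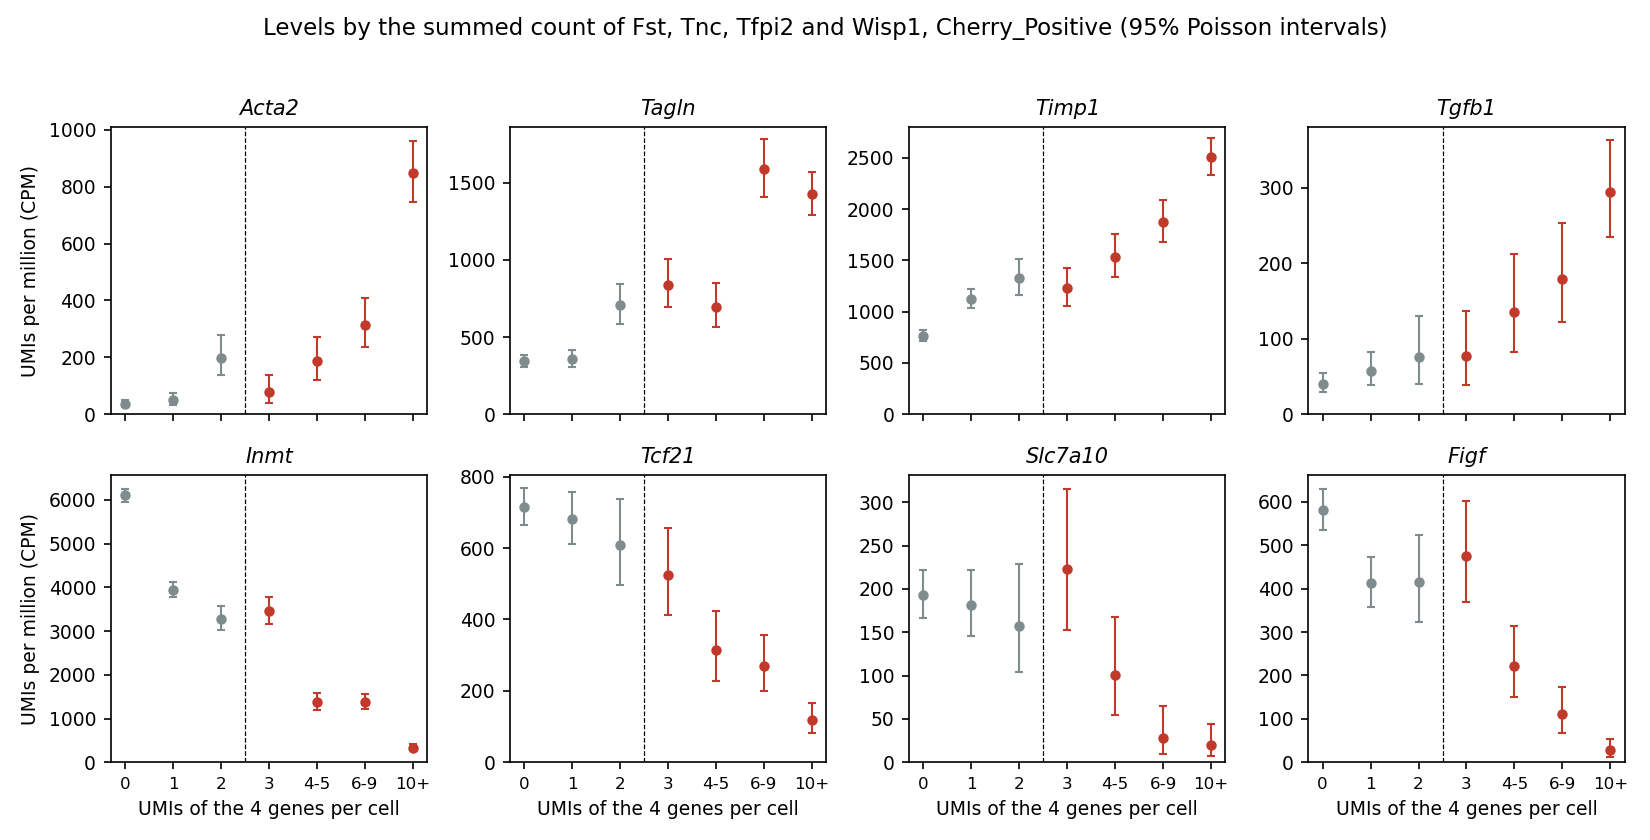
Level in CPM (points) with 95% Poisson intervals (bars) of 8 genes in Cherry_Positive alveolar fibroblasts grouped by their UMIs of the 4 genes; grey steps left of the dashed line are other alveolar fibroblasts and red steps right of it the chosen cells. Acta2 reaches 849 CPM in the last step, where Inmt is at 339 CPM.

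The 20 cells that held Fst stood apart from the other 84 chosen cells in several genes. Acta2 was at 1077 CPM (938 to 1230) in them and 226 CPM (188 to 269) in the 84, and Tpm2 at 259 CPM against 85.0 CPM, while Tagln was at 1151 CPM against 1239 CPM. Rgs16 was at 219 CPM against 18.1 CPM and the transcription factor Runx1 at 184 CPM against 45.2 CPM. Cxcl14 was at 3464 CPM against 561 CPM, so that its higher level in the chosen cells was that of the Fst-holding ones. Col1a1 was at 2133 CPM against 997 CPM, but Col3a1 at 2163 CPM against 1974 CPM. Of the genes that chose the cells, Tnc and Wisp1 were at 508 and 279 CPM with Fst, against 449 and 279 CPM without, and Tfpi2 at 329 CPM against 174 CPM; cells without Fst had to reach 3 UMIs through these genes. Inmt was at 434 CPM against 1714 CPM and Ces1d, a lipid carboxylesterase, at 204 CPM against 1247 CPM. The Fst-holding cells were deeper, with a median of 8038 UMIs against 5744.5, and the split was made after the data had been seen.

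Next, the chosen cells were set against the 136 chemokine-high alveolar fibroblasts of the same library, which had 0.5% or more of their UMIs in Cxcl9, Cxcl10 and Ccl7. The 2 groups had like depth, with medians of 5994 and 5681 UMIs. Among 5656 genes with at least 30 UMIs and 20 CPM, 404 (7.14%) were at least 2-fold higher in the chosen cells and 267 (4.72%) at least 2-fold lower. The lists take genes with at least 10 UMIs, for which these shares were not computed. Against the other alveolar fibroblasts the lower share was 3.72% under the first limit and 8.07% under the second. Interferon genes made the clearest difference. All 17 measured interferon gamma genes were at least 2-fold lower, with a median log2 ratio of -2.75, as were 18 of 20 type I interferon genes (median -2.34), 15 of 18 MHC class I presentation genes (median -1.36) and 10 of 14 acute phase and complement genes (median -1.25). Gbp5, a guanylate-binding protein, was 36.5-fold lower at 6.64 CPM against 242 CPM and found in 4 of 104 against 85 of 136 cells. Fam26f was 18.1-fold lower at 46.5 CPM against 843 CPM, the GTPase Rnd1 31.1-fold, the antiviral Rsad2 28.5-fold and the T cell attractant Ccl5 29.95-fold. Cxcl13 and Cxcl5 had 1 UMI each in the chosen cells, and Saa1 had 1 against 94.

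Contractile and identity genes differed less from the chemokine-high cells than interferon genes did. The contractile median was 0.45 with 1 of 15 genes at least 2-fold higher and 1 lower, beside a median of 0.26 over all genes, and Acta2 was at 453 CPM against 323 CPM. Of 22 identity genes 19 were higher, 5 at least 2-fold, with a median of 0.68. Tnc was at 465 CPM against 304 CPM. The genes that led the higher side were Retnla, Chil1, Sftpb, Spp1, Sftpa1, Sftpc, Sftpd and Wfdc12, of which single chosen cells held 65.9% (Wfdc12) to all (Sftpd) of the UMIs. Because the 2 groups were separated by chemokines that interferon induces, their difference in interferon genes is bound to that choice.

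Set against the 255 myofibroblasts of the library, the chosen cells shared part of the contractile genes at lower levels. Among 6015 genes with at least 30 UMIs and 20 CPM, 726 (12.1%) were at least 2-fold higher in the chosen cells and 378 (6.28%) at least 2-fold lower. The lists again take genes with at least 10 UMIs, without a share computed for that limit. Of 19 contractile genes 9 were at least 2-fold lower and 1 at least 2-fold higher, with a median of -0.94. Acta2 was at 453 CPM in the chosen cells and 2882 CPM in myofibroblasts, Tagln at 1216 CPM against 3465 CPM, and Myl9 at 18.6 CPM against 666 CPM. Genes that led the lower side were nearly absent from the chosen cells: Actg2 (smooth muscle gamma actin) at 1.33 CPM against 591 CPM, Lum (lumican) at 5.31 CPM against 1391 CPM, and Kcnj8, P2ry14 and Cd9 at 5.31, 9.29 and 26.6 CPM, against 337, 463 and 903 CPM. On the higher side, identity genes had a median of 3.51, with 19 of 21 at least 2-fold higher, and Cxcl14 was 26.6-fold higher. The potassium channel gene Kcnk13 and Tmem82 had 49 and 48 UMIs in the chosen cells and 0 in myofibroblasts, at least 29.4-fold and 28.8-fold higher, and Angptl8, which restrains lipoprotein lipase, had 111 against 2, a ratio of 99.8 (27.0 to 834). Retnla and Chil1 also led that side, through the single cell described above.

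Last, the 104 Cherry_Positive cells were compared with the 6 Cherry_Negative cells, which had 23623 UMIs in all. Among 3814 genes 1077 (28.2%) were at least 2-fold higher in the Cherry_Positive cells and 473 (12.4%) at least 2-fold lower; with so few UMIs in the smaller group, a 2-fold ratio is often within counting error. Saa3 had 1800 UMIs in the Cherry_Positive cells and 0 in the Cherry_Negative cells, at least 18.8-fold higher at a floor of 3 counts over the group, and in other alveolar fibroblasts Cherry_Positive cells were 6.45-fold higher. Ccl2 had 1103 UMIs against 0, at least 11.5-fold higher, beside 1.20-fold in other alveolar fibroblasts. The metallothioneins Mt2 and Mt1 had 1162 and 1346 UMIs against 2 and 5, ratios of 18.2 (5.03 to 151) and 8.44 (3.61 to 26.0), beside 2.95 and 1.96. Retnla, with 725 UMIs against 0, came from the single cell described above.

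In the other direction, Inmt was found in all 6 Cherry_Negative cells with 13 to 93 UMIs and a median of 28.5, against 0 to 53 and a median of 3.5 in the Cherry_Positive cells. It was at 1373 CPM in Cherry_Positive and 10879 CPM in Cherry_Negative cells, 7.93-fold lower, beside 2.15-fold lower in other alveolar fibroblasts. Gsn was 7.12-fold lower (2.103-fold in the others), Igfbp3 35.9-fold (5.21-fold) and Mamdc2 21.8-fold (1.62-fold). The 79 UMIs of Hp in Cherry_Negative cells all came from 1 cell. Acta2, Hmox1 and Fst had no UMI in the 6 cells, where 3 UMIs, as Tfpi2 had, amount to 127 CPM. Tnc, Wisp1 and Tfpi2, which chose the cells of both libraries, were at 465, 279 and 215 CPM in Cherry_Positive and 677, 466 and 127 CPM in Cherry_Negative cells. Acta2 at 453 CPM in Cherry_Positive cells was above the level of 3 UMIs in the Cherry_Negative cells.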

How the data were processed

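RNA of CD45-negative lung cells was measured in 2 Chromium 3′ libraries, 1 for each sorted group. The deposited matrices hold whole-number UMI counts of 27998 genes, not normalized; Cell Ranger 2.1.1, Seurat 4.0.2, R 4.0.3 and the build mm10 are named in the submitters' processing notes, with no role given, and the authors' cell labels were not used here. From these counts the cells were classed again by marker sums, so class names rest on rebuilt classes and can differ from those of the study. The members and all gene lists were chosen with earlier results of these data known.

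Counts were summed over cells and given as CPM with exact Poisson intervals; shares have exact binomial (Clopper-Pearson) intervals. Ratios are of CPM, list medians are of log2 ratios with a prior of 0.5 counts, and a ratio against 0 is taken at a floor of 3 counts over the group. Genes named first had at least 30 UMIs over both groups and 20 CPM in either and were ordered by the end of the ratio interval closer to 1: 15, 8, 6 and 5 each way for the other alveolar fibroblasts, chemokine-high cells, myofibroblasts and libraries. Genes of the cell choice, genes sharing a symbol, and genes 10 times higher in endothelial, epithelial or leukocyte cells were left out. Of the genes of 30 lists, C1s, Cxcl11 and Mx2 were not matched, and Ccl19 and Ltbp4 were left out for a shared symbol. Some genes that these rules name are not reported here. Cells were thinned to 2000 UMIs at random with a fixed seed.

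Doublets were sought with Scrublet at an expected 2%, which called 4 of 1770 (0.226%) and 7 of 2811 (0.249%) cells, none of them a chosen cell. So few calls do not show that the caller worked, and no cell was removed as a doublet. The ratio and its interval were tried on simulated Poisson counts summed over each group, with no spread between cells. That trial did not cover the choice of cells, the lists or the rankings. Python 3.11.15, numpy 2.4.6, scipy 1.17.1, pandas 2.3.3, scanpy 1.11.5 and matplotlib 3.10.9 were used, and edgeR 4.0.16 under R 4.3.3 gave the TMM factor of 1.11. Alternatives were other cell filters, thresholds, scalings, gene filters and left-out cells.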

Additional observations from a re-analysis of the deposited data

Results flagged for a closer look

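For 9 genes the ratio of the chosen cells over the other alveolar fibroblasts lay on opposite sides of 1 in the Cherry_Positive and the Cherry_Negative library. The difference between the libraries was not tested, and the Cherry_Negative value rests on 6 cells with 23623 UMIs.

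Ccl2 had a ratio of 5.27 in Cherry_Positive and 0 UMIs against 299 in Cherry_Negative, which at the floor of 3 counts is 0.549. Gsn had 0.338 in Cherry_Positive and 1.15 (1.02 to 1.29) in Cherry_Negative. Igfbp3 had 0.255 in Cherry_Positive and 1.76 (1.03 to 2.80) in Cherry_Negative, where 1 cell held 55.6% of its 18 UMIs. Mamdc2 had 0.205 in Cherry_Positive and 2.76 (1.45 to 4.80) in Cherry_Negative, from 13 UMIs. Mt2 had 1.10 in Cherry_Positive and 0.178 (0.0215 to 0.646) in Cherry_Negative, from 2 UMIs in 1 cell. Hp had 0.562 in Cherry_Positive and 13.6 in Cherry_Negative, all of it from 1 cell. The surfactant genes Sftpc, Sftpa1 and Sftpb had 16.5, 11.1 and 9.37 in Cherry_Positive, nearly all from the single cell with type 2 RNA, and 0.188, 0.499 and 0.266 in Cherry_Negative, where the 6 cells held 35, 8 and 2 UMIs.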

How the results depend on the processing

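No paired analysis was possible because each group has 1 library and no test was made. Of 540 list medians under the alternatives 522 stayed within the spread of the list's genes, and so did 849 of 1003 gene ratios and 56 of 76 counts and shares within their limits. Leaving out mixed cells or Fst-holding cells, limiting depth to 4000 UMIs and the second ranking were chosen after the data had been seen.

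Cells: with the 4 genes at 2 UMIs or more, the Cherry_Positive share of alveolar fibroblasts was 23.2% and Cherry_Negative had 23 cells (5.93%); at 5 or more, 65 cells (10.5%) and 1 cell (0.258%), with 341 genes at least 2-fold lower. With no chemokine limit there were 159 Cherry_Positive cells (25.6%) and 232 genes at least 2-fold higher. Thinned to 2000 UMIs there were 39 Cherry_Positive cells (6.39%) and 3 Cherry_Negative cells, with 567 genes higher and 420.0 lower. With at least 10 UMIs and no CPM minimum 752 genes were higher and 810 lower, and with at least 1 UMI 1896 and 2803.

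Lists: the acute phase median was -1.41 after thinning. The G2/M median was -0.96 with alveolar fibroblast genes at 4 or more UMIs, -0.98 as a mean over single cells, 0.46 with chemokines below 1% and 0.0929 with no chemokine limit.

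Genes: the type 2 and related genes turned to the lower side without the top cell, with ratios of 0.212 for Retnla, 0.518 for Chil1, 0.283 for Sftpa1, 0.0666 for Sftpb, 0.390 for Spp1 and 0 for Napsa and Sftpd. Without cells over 1% they were 0.747 for Retnla, 0.776 for Sftpa1, 0.187 for Sftpb and 0 for Napsa and Sftpd, with Scgb3a1 at 1.92 and Scgb3a2 at 1.12. Thinned, they were 0.00988 for Retnla, 0.0530 for Chil1, 0.157 for Sftpc, 0.233 for Scd1, 0.0512 for Sftpa1 and 0 for Napsa, Sftpd and Sftpb. Scgb3a1 was 2.56 with at least 1000 genes and at most 5% mitochondrial UMIs and 2.23 with alveolar fibroblast genes at 4 or more UMIs, where Inhba was 0.742. S100a8 was 1.01 with the 4 genes at 2 or more UMIs. Without Fst-holding cells Col15a1 was 0.776 and Spp1 0.157. Apart from the construction of each setting, the causes were not tested. Values of the Cherry_Negative chosen cells rest on 6 cells.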

Other observations

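Growth factor genes were mixed in the chosen Cherry_Positive cells against the other alveolar fibroblasts. Of 18 growth factors for epithelium and vessels, 4 were at least 2-fold higher and 4 at least 2-fold lower, with a median log2 ratio of 0.23. Ligands of the EGF receptor family went both ways. Hbegf was at 57.1 CPM against 11.1 CPM, Nrg1 had 18 UMIs against 1, a ratio of 41.0 (6.47 to 1708), and Ereg had 21 UMIs in 7 chosen cells against 0. Areg had 1 UMI against 15, a ratio of 0.152 (0.00361 to 0.987), and Tgfa had 0 against 3. Hgf was at 6.64 CPM against 23.9 CPM. Of 10 genes of insulin-like growth factors and their binding proteins 2 were at least 2-fold higher and 4 at least 2-fold lower, with a median of -0.47. Igfbp5 was at 94.3 CPM against 30.9 CPM, while Igfbp4 was at 320 CPM against 895 CPM, so the binding proteins differed in opposite directions.

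Of 17 retinoid and lipid genes 4 were at least 2-fold higher and 3 at least 2-fold lower (median -0.22), with the lipid carrier Apoe at 1577 CPM against 3453 CPM. For glycolysis and hypoxia 1 of 21 was at least 2-fold higher and 2 at least 2-fold lower (median 0.12). G1/S genes had 4 of 16 at least 2-fold higher and 2 at least 2-fold lower (median 0.15), with the cyclin Ccnd2 at 161 CPM against 58.9 CPM and Ccnd1 at 39.8 CPM against 79.3 CPM. All 11 G2/M genes were at least 2-fold lower (median -2.09, or -1.98 with genes at 0 set to their bound). The chosen cells held 28 UMIs of them in 22 cells, against 361 UMIs in 74 other alveolar fibroblasts, of which 6 cells held 266. Without those 6 cells the level was 37.2 CPM in the chosen cells and 58.5 CPM in the others.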
